A study of Caenorhabditis elegans with 2 samples.

Results

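The genes described here encode the ubiquitin and proteasome system of Caenorhabditis elegans, and they were examined for binding of the tagged ETS transcription factor LIN-1 near their starts. Members were the nuclear protein-coding genes with a name beginning in pas-, pbs-, rpt- or rpn- (subunits of the proteasome) or in ubc-, uba-, cul-, usp-, otub- or wwp- (enzymes and scaffolds that attach or remove ubiquitin or a ubiquitin-like protein, called ubiquitin enzymes here). The rule found 77 of the 19973 nuclear protein-coding genes, 33 proteasome subunit genes and 44 ubiquitin enzyme genes. Chromatin immunoprecipitation and sequencing was done on whole L4 larvae of strain RW12212, collected at 48 hours after hatchlings had been starved to synchronise them. In this strain the allele st12212 adds a TY1, EGFP and 3xFLAG tag to lin-1 on chromosome IV, made with CRISPR. The single group had 2 biological replicates, all animals carried the tag, and no untagged sample was analysed here. The description names an antibody against GFP and the antibody field names lin-1. Signal from whole larvae cannot be assigned to a tissue.

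Ubiquitin is a small protein that is first loaded onto an activating enzyme, then passed to a conjugating enzyme, and finally attached to a target with the help of a ligase. Cullins are the scaffolds of a large family of ligases, and deubiquitinases take ubiquitin off again. Proteins that carry ubiquitin chains are unfolded by the ATPase ring of the proteasome's regulatory particle and cut inside its core, a barrel of alpha and beta rings. LIN-1 is the nuclear target of Ras and ERK signalling in the vulval precursor cells of the worm. ETS factors as a family bind DNA around a short core, which was searched for here as GGAA.

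Binding was read from the conservative list of peaks shared by the replicates. Each has an IDR (irreproducible discovery rate, which grows as a peak's ranks in the lists compared fall or diverge) of 0.01 or less. It held 2267 peaks, 2243 of them on the nuclear chromosomes. The own thresholded list of replicate 1 held 1079 peaks and that of replicate 2 held 1348. Read totals are not in the lists, so the depth behind a peak is unknown. A summit is the position of highest signal in a peak, and a promoter summit is one from 1000 bp upstream to 200 bp downstream of a gene start. Signals are those the authors deposited, and their scale is not stated. A conservative signal is a single value from both replicates and has no SD.

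Promoter summits were found at 10 of the 77 members, or 13.0% (exact 95% binomial interval 6.41 to 22.6%), against 5.25% of all nuclear protein-coding genes. The enzymes held 8 of these 10. Among ubiquitin enzymes the count was 8 of 44, or 18.2% (interval 8.19 to 32.7%), and 1 of these 8, ubc-9, attaches SUMO and not ubiquitin. Among proteasome subunits it was 2 of 33, or 6.06% (interval 0.743 to 20.2%), close to the 5.25% of all genes. The 2 intervals overlap. The difference between the sets was not tested, and intervals cover counting error over genes only. All 10 summits lay upstream of the gene start, between 191 and 942 bp away with a median of 290 bp. Over all 1124 pairs of a gene and its promoter summit, 94.2% lay upstream, with a median of 294 bp.

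**Figure D1:**
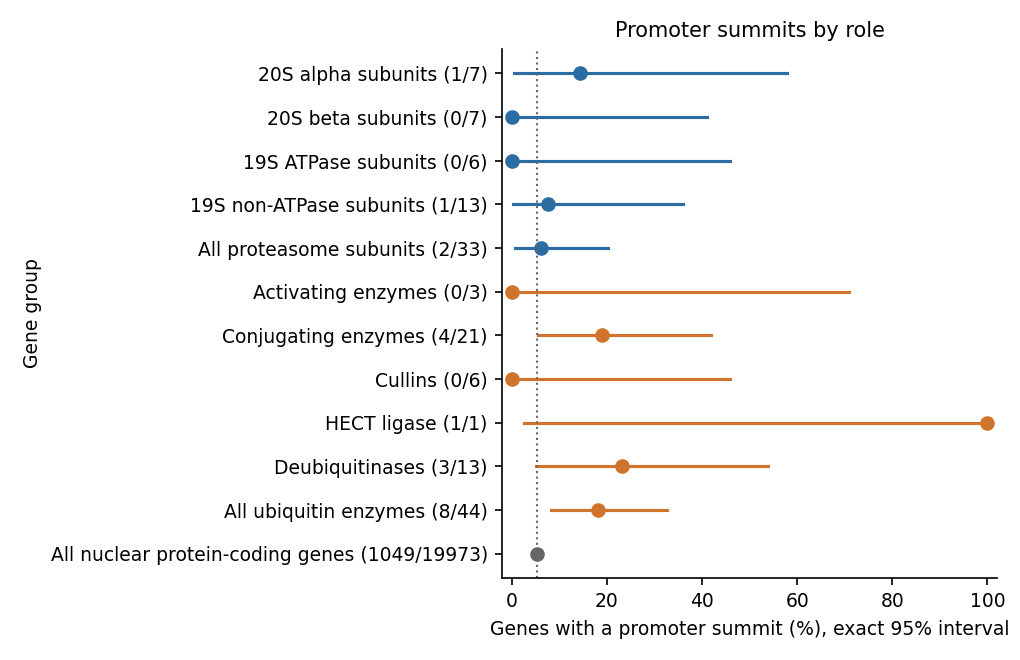
Share of genes with a promoter summit in the conservative list (horizontal axis, percent) for each role, with exact 95% binomial intervals as lines, proteasome subunits in blue, ubiquitin enzymes in orange and all genes in grey with a dotted line at 5.25%. The proteasome as a whole sits at 6.06% beside the dotted line, and the ubiquitin enzymes sit at 18.2%, with deubiquitinases at 23.1%.

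By role, the promoter summits fell on the ligase wwp-1, on 4 of 21 conjugating enzymes (interval 5.45 to 41.9%) and on 3 of 13 deubiquitinases (23.1%, interval 5.04 to 53.8%). None of the 3 activating enzymes and none of the 6 cullins had one, and with sets of this size the intervals reach 70.8% and 45.9%. In the proteasome core, 1 of 7 alpha subunits and 0 of 7 beta subunits had a promoter summit. In the regulatory particle, 0 of 6 ATPase subunits and 1 of 13 non-ATPase subunits had one.

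The strongest promoter peak of a member was that of wwp-1 (WBGene00007009), a HECT-type ubiquitin ligase with a known part in the long life of worms on a restricted diet. Its conservative signal was 193, with 87.0 in replicate 1 and 103 in replicate 2, and the peak was in both replicates' own thresholded lists. With that signal it ranked 51 among the 2243 nuclear peaks. The peak covered 536794 to 536947 of chromosome I (ce11), and its summit, 256 bp upstream, fell in an exon of the non-coding RNA gene Y65B4BR.10. A second conservative peak lay 1703 bp upstream of wwp-1, outside the promoter window. Its conservative signal was 102, with 51.9 and 47.5 in replicates 1 and 2. That second summit was in the promoter window of icd-2, which encodes a subunit of the nascent polypeptide-associated complex.

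The conjugating enzymes with a promoter summit were ubc-6, ubc-3, ubc-25 and ubc-9. Their conservative signals spanned 54.0 to 121, and only those of ubc-6 and ubc-3 were in the own lists of both replicates. The ubc-6 gene (WBGene00006703), whose yeast counterpart acts in degradation at the endoplasmic reticulum, had 46.6 in replicate 1, 73.3 in replicate 2 and 121 in the conservative list (chromosome II, 7478831 to 7479126). Its summit was intergenic, 208 bp upstream of ubc-6 and 442 bp upstream of aka-1, the gene on the other strand across a gap of 649 bp. The peak therefore counts for both genes.

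The ubc-3 gene (WBGene00006702) is the counterpart of yeast CDC34, the conjugating enzyme that works with cullin ligases. Its peak (chromosome I, 1697877 to 1698172) had 35.0 in replicate 1, 63.7 in replicate 2 and 99.2 in the conservative list, with an intergenic summit 324 bp upstream. The ubc-25 peak (WBGene00006720; chromosome I, 10562444 to 10562739) had 28.6 in replicate 1, 53.7 in replicate 2 and 80.3 in the conservative list, and was thresholded in replicate 2 only. At ubc-9 (WBGene00006706), the conjugating enzyme for the ubiquitin-like protein SUMO, the signal was 25.3 in replicate 1, 27.8 in replicate 2 and 54.0 in the conservative list (chromosome IV, 4650652 to 4650947), in neither own list. The ubc-9 peak lay just inside the threshold, with a global IDR of 0.00995, and the promoter peak of the ATPase subunit gene rpt-3 lay just outside it, with 0.0107 and a signal of 43.4.

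The deubiquitinases with a promoter summit were usp-4, otub-2 and usp-3, none of them in both own lists. The usp-4 gene (WBGene00019259) had 25.3 in replicate 1, 55.7 in replicate 2 and 80.7 in the conservative list, with an intergenic summit 675 bp upstream (chromosome IV, 6756488 to 6756783). Its peak was thresholded in replicate 2 only, and the non-coding gene H34C03.18 was within 200 bp of the summit. The otubain gene otub-2 (WBGene00021733) had 21.7 in replicate 1, 50.5 in replicate 2 and 79.5 in the conservative list, 942 bp upstream (chromosome I, 397801 to 398096). For usp-3 (WBGene00013506), whose human counterpart removes ubiquitin from histones, the signal was 27.3 in replicate 1, 37.5 in replicate 2 and 65.9 in the conservative list (chromosome I, 13951673 to 13951968). The usp-3 summit lay 191 bp upstream of usp-3 and 340 bp upstream of rps-6, a ribosomal protein gene on the other strand, in an exon of the non-coding genes Y71A12B.30 and Y71A12B.31. A further summit, 1685 bp upstream of usp-3, belonged to a peak of 93.2, with 64.4 and 38.5 in replicates 1 and 2. The otub-2 and usp-3 peaks were in neither own list and were also not in the series list, the other deposited list drawn from both replicates, in which 6 enzymes and 1 proteasome gene had a promoter summit against 5.51% of all genes.

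**Figure D2:**
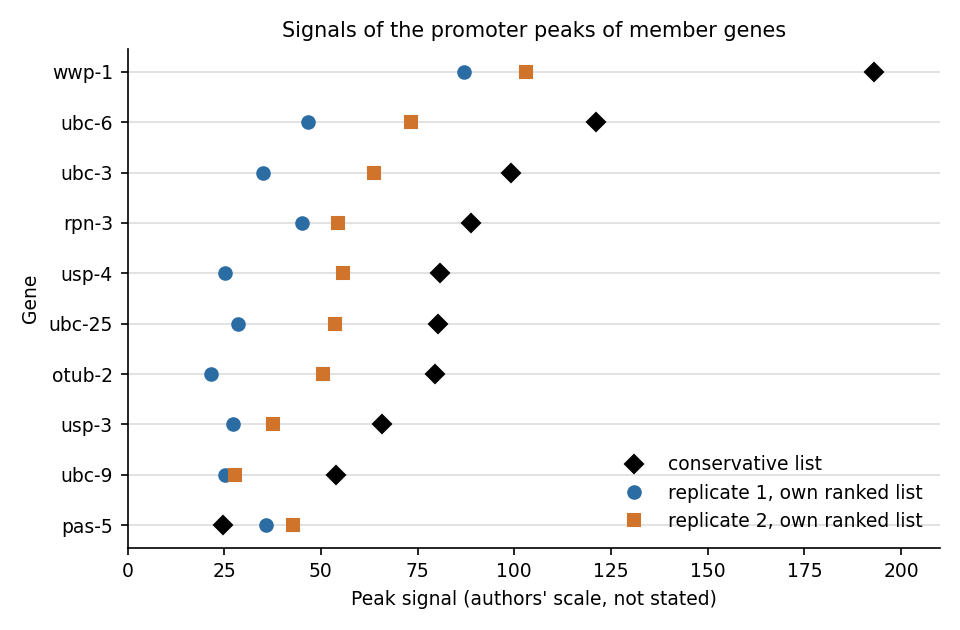
Peak signal (horizontal axis, authors' scale) of the promoter peaks of the 10 members, with black diamonds for the conservative list, blue circles for replicate 1 and orange squares for replicate 2, each from the highest peak overlapping it in the ranked list of that replicate. The wwp-1 peak stands highest at 193, and replicate 2 is above replicate 1 for all 10 genes. The pas-5 diamond, at 24.8, lies below both of its replicate points, which hold the values of a stronger neighbouring peak.

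Of the proteasome subunits, rpn-3 and pas-5 had a promoter summit. The rpn-3 gene (WBGene00004460) encodes a non-ATPase subunit of the regulatory particle's lid. Its peak (chromosome III, 8447106 to 8447198) had 45.0 in replicate 1, 54.5 in replicate 2 and 88.9 in the conservative list, and was thresholded in replicate 1 only. The intergenic summit was 195 bp upstream of rpn-3 and 249 bp upstream of hsp-110, a chaperone gene on the other strand with its start 443 bp away. The non-coding gene C30C11.14 was within 200 bp of this summit. Around rpn-3 there were 2 more conservative summits. One was in the 3′ UTR of rpn-3 itself, 1981 bp downstream of its start, and it was also a promoter summit of mrpl-32. Its peak had 92.1 in the conservative list, 61.5 in replicate 1 and 30.9 in replicate 2. The other was in a coding exon of hsp-110, 1235 bp upstream, with a signal of 62.3.

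The peak counted for pas-5 (WBGene00003926), an alpha subunit gene of the core, was given the replicate signals of another peak in the IDR comparison. It lay 904 bp upstream (chromosome I, 10565298 to 10565593) with a signal of 24.8, and it repeated both replicate signals, 35.7 and 42.9, of a stronger neighbour. That neighbour, with a signal of 75.2, had its summit 1107 bp upstream of pas-5 and so outside the promoter window. Both lay in the 1446 bp between ubc-25 and pas-5, which run in tandem, and the snoRNA gene F25H2.15 was within 200 bp of the counted summit. Without such repeated peaks, rpn-3 was the 1 proteasome gene left with a promoter summit, 3.03% of 33, below the 5.22% of all genes in the same setting.

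**Figure D3:**
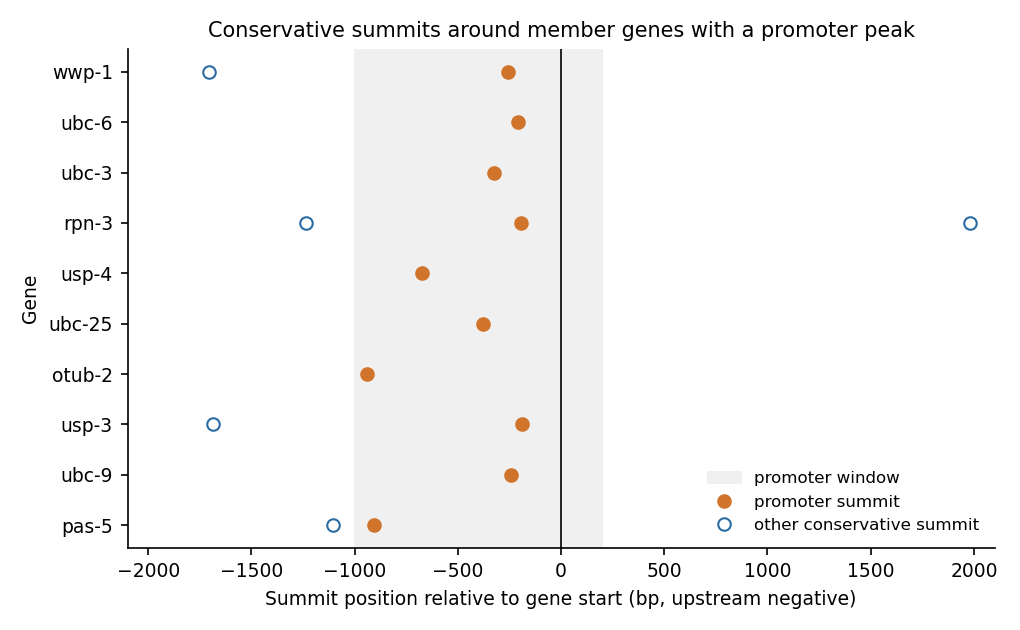
Position of conservative summits relative to the gene start (horizontal axis in bp, upstream negative) for the 10 members with a promoter summit, filled for promoter summits and open for other summits from 2000 bp upstream to the gene end. All 10 filled points are left of the start, and rpn-3 has 3 summits, 1 of them at the far end of the gene.

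The letters under the summits of ubc-6, rpn-3, usp-4 and ubc-9 are shown. These peaks were chosen because they span the range from a high to a near-threshold signal and their windows lack GGAA. ETS cores other than GGAA were not searched. The letters are the plus strand of the RefSeq WBcel235 reference (the same assembly as ce11), from 50 bp before to 50 bp after each summit. Capitals mark GGAA on either strand and the motif GAANNTTC, a pair of facing heat shock element units. Positions are chrII:7478929-7479029 for ubc-6, chrIII:8447108-8447208 for rpn-3, chrIV:6756586-6756686 for usp-4 and chrIV:4650750-4650850 for ubc-9.
ubc-6: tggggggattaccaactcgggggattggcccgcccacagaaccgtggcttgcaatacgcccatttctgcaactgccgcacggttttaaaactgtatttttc
rpn-3: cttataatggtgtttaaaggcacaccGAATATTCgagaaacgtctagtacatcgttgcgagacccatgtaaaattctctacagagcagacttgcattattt
usp-4: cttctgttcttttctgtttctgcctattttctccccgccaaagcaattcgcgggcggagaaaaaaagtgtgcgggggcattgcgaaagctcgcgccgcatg
ubc-9: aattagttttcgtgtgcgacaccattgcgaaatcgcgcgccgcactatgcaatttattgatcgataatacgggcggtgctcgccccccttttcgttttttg

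Over all 10 member peaks, 4 windows held GGAA, against 55.0% of the 909 promoter peaks of all genes and 60.3% of the other 1334 nuclear peaks. These 4 were usp-3 with 3 matches, ubc-3 with 2, and ubc-25 and otub-2 with 1 each. The count depends on the window, with 1 of 10 within 25 bp of the summit and 7 of 10 within 100 bp, against 31.2% and 82.4% of promoter peaks. The longer ETS words CCGGAA and CCGGAAGT were in no member window and in 2.42% and 0.110% of promoter peaks, and GGAAGT was in 1, at otub-2, against 3.74%. Of the other words searched on both strands, GAANNTTC was in 1 member window, the one that rpn-3 shares with hsp-110, against 4.73% of promoter peaks. GTCAT, a core word of the proteasome regulator SKN-1, was at wwp-1 and ubc-3 (16.9% of promoter peaks), and ATCAT was in none (21.2%). GAGAG was at ubc-3 and ubc-25 (36.0%), and the E-box CACGTG was in none (5.72%). Counts of these words also depend on the window. Within 100 bp of the summit, ATCAT was in 3 of 10 (38.3% of promoter peaks) and GTCAT in 3 (30.6%). GAGAG was then in 3 (51.8%), GAANNTTC in 2 (9.13%) and CACGTG in none (9.90%). GGAA is part of CCGGAA, CCGGAAGT and GGAAGT, so these counts overlap. A match says nothing of a bound factor, and its absence says only that the letters are not in the window.

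The ubc-6 window printed above differed from the other 9 in being repeated in the genome. Its 20-mers had a median of 87 copies on the nuclear chromosomes, and 100% of its bases are in lower case in the reference, which marks repeats. The windows of the other 9 member peaks had a median of 1 copy, with 0 to 48.5% of bases in lower case. Over the 909 promoter peaks of all genes, 29 or 3.19% had 10 or more copies. The part of this repetition in the ubc-6 signal was not tested. Without peaks of 10 or more copies, 7 of 44 enzymes (15.9%) had a promoter summit, against 5.12% of all genes.

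Most members lacked a thresholded promoter peak yet had a ranked one. The IDRs of these ranked peaks reached 0.819, and some of these members had no promoter summit in either replicate's own ranked list. In the conservative ranked list, which holds peaks of every IDR, 59 of 77 members (76.6%) had a promoter summit, against 44.6% of all genes. The proteasome stood higher by this measure than the enzymes, with 28 of 33 (84.8%) against 31 of 44 (70.5%), the opposite order to that of the thresholded counts, and the difference was not tested. In the replicates' own ranked lists the counts were 53 in replicate 1 and 48 in replicate 2, against 41.0% and 38.8% of all genes. The median signal of these peaks was 27.4 over the 28 proteasome genes and 40.6 over the 31 enzyme genes, against 27.0 over all 8916 genes with a ranked promoter peak, whose upper quartile was 38.6. Genes without a ranked peak do not enter those medians.

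**Figure D4:**
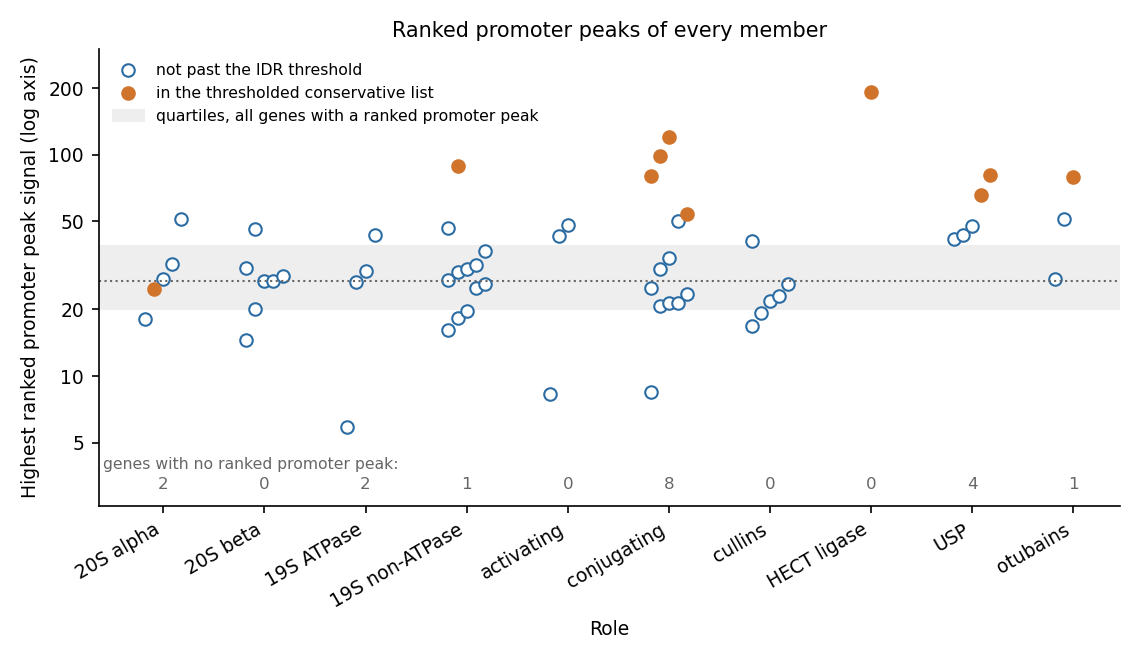
Highest signal of a ranked conservative promoter peak (vertical axis, log scale) for each member by role, filled where the gene is in the thresholded list and open where it is not, with the number of genes lacking such a peak written below each role. The grey band gives the quartiles over all genes with a ranked promoter peak, 20.2 to 38.6 around a median of 27.0, and most proteasome points lie in it while 9 of the 10 filled points lie above it.

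Several members stood just under the threshold. At a global IDR of 0.05 or less, 17 of 77 members (22.1%) had a promoter summit, against 8.08% of all genes, and the enzymes made up 13 of these 17. For members without a thresholded promoter peak, a replicate's value is the highest signal in its own ranked list with a summit in the promoter window, which need not be the same peak as the conservative one. The 7 members added between 0.01 and 0.05 were rpt-3, ubc-7, otub-1, usp-48, uba-1, pbs-1 and usp-14. The highest signals among them were 51.2 at otub-1, with 25.2 in replicate 1 and 25.4 in replicate 2, and 50.4 at ubc-7, with 12.7 and 28.7. The activating enzyme gene uba-1, which loads ubiquitin for the whole system, had 43.0, with 21.2 in replicate 1 and 27.0 in replicate 2. At usp-14, a deubiquitinase that works on the proteasome itself, the signal was 41.8, with 20.3 and 22.9. Of the proteasome subunits, the ATPase gene rpt-3 had 43.4, with 30.6 in replicate 1 and 24.1 in replicate 2, and the beta subunit gene pbs-1 had 46.0, with 18.5 and 30.4.

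The highest ranked promoter peaks of 3 further name groups did not pass the threshold. Among alpha subunits it was at pas-4, with a signal of 51.3 and an IDR of 0.255, beside 14.5 in replicate 1 and 35.8 in replicate 2. Among cullins it was at cul-1, the scaffold of the SCF ligases, with 40.6 and an IDR of 0.248, beside 16.8 in replicate 1 and 15.8 in replicate 2. All 6 cullins had a ranked promoter peak and none passed the threshold, with IDRs from 0.248 to 0.819. Some of the 6 had no promoter summit in either replicate's own ranked list. Among activating enzymes the highest signal was at uba-2 (for SUMO), with an IDR of 0.155, beside 21.5 in replicate 1 and 43.6 in replicate 2. No ranked conservative promoter peak was found at 18 members. These were pas-3 and pas-6, rpt-1 and rpt-2, rpn-6.1, ubc-1, ubc-15, ubc-17, ubc-18, ubc-19, ubc-21, ubc-22 and ubc-23, usp-5, usp-33, usp-46 and usp-50, and otub-4. Among them is ubc-18, the conjugating enzyme known to work with WWP-1, whose gene had the strongest peak of the members.

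Beyond the promoter window, pbs-1 and ubc-8 were the 2 members without a promoter summit that had one from 1000 to 2000 bp upstream. The pbs-1 peak, 1515 bp upstream, had 84.2 in the conservative list, 41.5 in replicate 1 and 43.3 in replicate 2, and was a promoter summit of rpi-2. The ubc-8 peak, 1491 bp upstream and intergenic, had 80.5 (41.8 in replicate 1 and 39.1 in replicate 2). No member other than rpn-3 had a summit in its gene body outside the promoter window. From the start of a member to the nearest conservative summit on its chromosome, the median distance was 16.6 kb, against 20.1 kb for all genes, and the farthest was ubc-19 at 112 kb. The medians of the proteasome and of the enzymes were 16.9 and 14.1 kb.

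**Figure D5:**
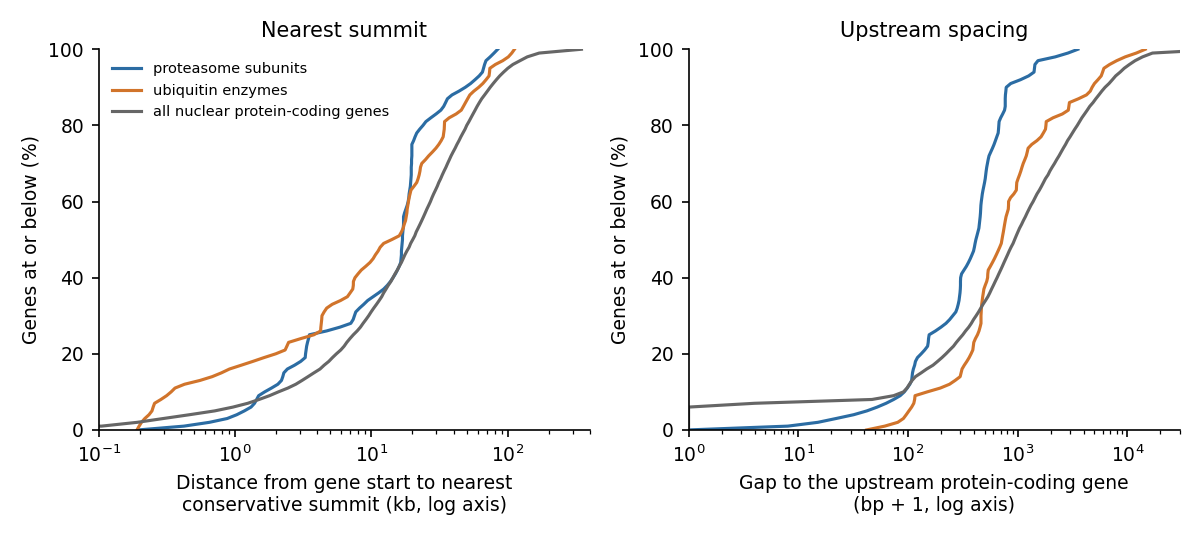
Share of genes (vertical axis, percent) at or below a distance to the nearest conservative summit (left, kb) and at or below a gap to the upstream protein-coding gene (right, bp + 1), both on log axes, for proteasome subunits in blue, ubiquitin enzymes in orange and all genes in grey. At 1 kb the orange curve on the left lies above the blue and grey ones, and in the right panel the middle of the blue curve lies left of both others, with a median gap of 415 bp.

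Proteasome genes had short upstream regions. A promoter window kept its full length where it entered the next gene, and summits there were counted. The median gap of proteasome genes to the upstream protein-coding gene was 415 bp, and that of the enzymes was 718 bp, against 937 bp for all genes. Whether this spacing bears on the counts was not tested. A head-to-head neighbour within 1000 bp was present for 21 of 33 proteasome genes (63.6%) and 15 of 44 enzymes (34.1%), against 21.3% of all genes. Among genes with an upstream gap of 500 bp or more, 1 of 12 proteasome genes (8.33%) and 7 of 27 enzymes (25.9%) had a promoter summit, against 5.33% of all such genes. Under 500 bp the counts were 1 of 21 and 1 of 17, against 5.09%. The gap was 443 bp at rpn-3, 389 bp at ubc-9, 530 bp at usp-3, 534 bp at wwp-1 and 649 bp at ubc-6, and between 1446 and 8738 bp at the other 5.

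Chromosome I held 6 of the 10, from 22 members there, while 5.49% of all 2878 genes of that chromosome had a promoter summit. Chromosome IV held 2 of 12 members, against 4.85% of all its genes. Chromosomes II and III held 1 of 14 each, against 5.25% and 7.23%, and V and X none of 10 and 5, against 3.94% and 5.97%. The 6 on chromosome I were otub-2, wwp-1, ubc-3, ubc-25, pas-5 and usp-3, of which ubc-25 and pas-5 are neighbours.

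The replicates differed in signal at the member peaks and in which of these peaks were thresholded. Replicate 2 had the higher signal at all 10 member peaks, by 1.10-fold at ubc-9 to 2.32-fold at otub-2 with a median of 1.47-fold. The pas-5 values counted here, 35.7 and 42.9, are also those of its stronger neighbour. Over the promoter peaks of all genes with a value in both, replicate 2 was higher in 603 of 891, with a median of 1.16-fold. Member peaks ran from 21.7 to 87.0 in replicate 1 and from 27.8 to 103 in replicate 2. Of the 10 peaks, 3 were in both own lists (wwp-1, ubc-6 and ubc-3), 1 in replicate 1's only, 2 in replicate 2's only and 4 in neither. Of all promoter peaks, 31.0% were in both. Counted from the own list of replicate 1 alone, 4 members had a promoter summit (rpn-3, ubc-6, ubc-3 and wwp-1), against 2.65% of all genes. From that of replicate 2 alone, 5 had one (usp-4, ubc-6, ubc-3, ubc-25 and wwp-1), against 3.43%.

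Other genes of ubiquitin and related systems were read from 8 hand-chosen lists of 90 genes in all, each matched to the annotation. The lists leave out many ligase genes of the worm and do not stand for the rest of the system. Promoter summits were found at 8 of the 90 (8.89%), against the same 5.25% of all genes. CDC-48 and its cofactors, which pull ubiquitinated proteins out of complexes and membranes, had 2 of 12. These were cdc-48.1, with 125 in replicate 1, 151 in replicate 2 and 277 in the conservative list (chromosome II, 10563490 to 10563658, summit 177 bp upstream), and the cofactor ubxn-3, with 68.0. Other ligases had 1 of 15, the HECT ligase gene eel-1, with 228 in the conservative list, 116 in replicate 1 and 113 in replicate 2 (chromosome IV, 3050413 to 3050558, 381 bp upstream). The peaks of cdc-48.1 and eel-1 ranked 9 and 24 among nuclear peaks, above that of wwp-1.

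SUMO and other ubiquitin-like systems had 3 of 15. The autophagy gene lgg-2 had 134, with 69.9 in replicate 1 and 66.2 in replicate 2. Its relative lgg-1 had 85.8, and the SUMO protease gene ulp-4 had 64.3, with a summit 999 bp upstream and so at the edge of the window. Proteasome-associated factors had 1 of 5, ubql-1, a shuttle for ubiquitinated proteins, with 138 (39.0 in replicate 1 and 99.5 in replicate 2), whose summit was in exons of 2 non-coding genes and also in the promoter window of pdi-3. Cullin partners, neddylation and the signalosome had 1 of 26, the F-box gene lin-23, with 102 (42.8 in replicate 1 and 59.1 in replicate 2), 940 bp upstream. The 3 ubiquitin precursor genes, the 5 genes of the SKN-1A pathway, which sets proteasome gene levels in worms, and 9 other deubiquitinases had none.

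The windows around the summits of cdc-48.1 and eel-1, which had the highest signals of the 8 listed genes with a promoter summit, are given in the same way, as the plus strand with capitals for the same 2 motifs (chrII:10563534-10563634 and chrIV:3050435-3050535). Neither holds GGAA or GAANNTTC. The window of lgg-2 (chrIV:10936171-10936271) has GGAA at 2 places and is set beside them.
cdc-48.1: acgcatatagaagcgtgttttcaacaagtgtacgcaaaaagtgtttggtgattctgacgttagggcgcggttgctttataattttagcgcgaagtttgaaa
eel-1: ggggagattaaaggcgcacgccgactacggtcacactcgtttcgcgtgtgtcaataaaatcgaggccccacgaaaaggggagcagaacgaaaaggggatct
lgg-2: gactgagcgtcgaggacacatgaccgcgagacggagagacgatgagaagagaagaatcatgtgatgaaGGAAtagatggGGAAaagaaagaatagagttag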

How the data were processed

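Peak lists on ce11, per the labels, were deposited by the authors as 4 thresholded and 4 ranked lists, of which the ranked list behind the series list was not used. The authors gave each peak a signal on an unstated scale and a score. In a ranked list the global IDR is deposited as a −log10 value. Each replicate's lists came from its own alignments, per the labels' file notes, and the others from both, all with a further input alignment. Which aligner and peak caller were used is not known here, so the handling of reads from repeated sequence is not known either. The 132 conservative peaks that repeat both replicate signals of a stronger peak were kept.

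Gene starts came from the Ensembl 115 annotation of WBcel235, and 0 peaks ran past a chromosome end. For a thresholded peak, a replicate's signal is the highest in its own ranked list among peaks overlapping by 1 bp or more, and for other members it is the highest with a summit in the promoter window. Python 3.11.15, pandas 2.3.3 and SciPy 1.17.1 were used, and the window search was checked on simulated data. Members, lists and motifs were chosen with earlier results of these data known. By rule, genes are named if they have a thresholded peak in or near the promoter window, share one, or have the highest ranked peak of their name prefix. Members between the IDR thresholds, the 18 with no ranked peak and ubc-18 among them were named after their values were seen. No test was run, and counts stand beside the share over all genes.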

Additional observations from a re-analysis of the deposited data

How the results depend on the processing

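The count of proteasome genes with a promoter summit was 2, and it was 2 at an IDR of 0.001, with any transcript start, with the nearest start only, with any part of a peak counted and without peaks on repeated sequence. It was 1 (rpn-3) in the series list, without repeated signals and with 500 bp upstream to 100 bp downstream, 3 in the window of 2000 bp upstream to 500 bp downstream (pbs-1 added), 0 with peaks of both own lists, and between 0 and 1 in the own list of a single replicate. The proteasome share was below that of all genes in the series list (3.03% against 5.51%) and without repeated signals (3.03% against 5.22%). It was also below with 500 bp upstream to 100 bp downstream (3.03% against 3.84%), with peaks of both own lists (0 against 1.79%) and without replicate 1 (0 against 3.43%). It was above that of all genes at an IDR of 0.001 (6.06% against 2.95%) and with the nearest start only (6.06% against 4.21%). It was also above with any transcript start (6.06% against 5.93%) and any part of a peak (6.06% against 5.68%). The same held in the window of 2000 bp upstream (9.09% against 7.72%) and without replicate 2 (3.03% against 2.65%). In each of these settings except the last, pas-5 was counted. The pas-5 peak repeats both replicate signals of a stronger neighbour with its summit outside the promoter window. The count of ubiquitin enzymes, 8, was between 3 and 5 in the own list of a single replicate, 3 with peaks of both own lists and 4 at an IDR of 0.001, where shares were 6.82 to 11.4%. It was between 6 and 9 in the series list, with other windows, starts or assignments, and without repeated signals. Each of those shares was above that of all genes in the same setting, for which the count of 1049 was between 530 and 686 in single replicates, 357 with peaks of both own lists and 590 at an IDR of 0.001. Chosen after seeing the data, an IDR of 0.05 gave 4 proteasome genes (12.1%, against 8.08% of all genes), 13 enzymes and 1614 genes in all. An upstream gap of 500 bp or more gave 1 proteasome gene (8.33%, against 5.33%). Leaving out peaks on repeated sequence gave 2 (6.06%, against 5.12%). The median distance to the nearest summit lay between 18 and 25.4 kb in single replicates, against 30.9 to 38.1 kb for all genes. Fewer peaks entered in the single lists, and read depth is unknown. No paired analysis was possible because the series has 1 group.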
